A study of Danio rerio with 2 samples.

Results

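Transcripts of a small group of granule-associated genes, npsn (nephrosin), lect2l (leukocyte cell-derived chemotaxin 2 like) and srgn (serglycin), were followed through the neutrophils and the other cells of adult zebrafish kidney marrow. The genes were taken by symbol from the feature table of 25109 features, and 3 of the 4 symbols named were found. These were npsn (ENSDARG00000010423), lect2l (ENSDARG00000033227) and srgn (ENSDARG00000077069), and lect2.1 was not analysed here. Their levels, and the share of cells in which they were detected together with lyz, the lysozyme gene, were measured across bands of lyz share and across marker-gated cell classes. The values come from droplet-based scRNA-seq of 2 libraries, both made from the kidney marrow of the same 2 male fish, aged 6 months. The fish carried the transgenes Tg(lysC:CFPNTR) and, for mmp9, Tg(BACmmp9:Citrine-CAAX)vi003. The single-cell text of the study labels the lysC line vi004, an allele name that its methods give to another line. The sorted library pooled live LysC:CFP+ neutrophils gated on no, intermediate or high Mmp9:Citrine-CAAX, and the WKM (whole kidney marrow) library pooled live cells of both fish with debris excluded and no reporter gate. In both, cells had been labeled with lipid-anchored barcodes before the sort, and the fish of both libraries carried both reporters. The CFP reporter is driven by the lysC promoter, the Citrine reporter by a bacterial artificial chromosome that holds mmp9. Fish and Mmp9 gate were not told apart here. After quality control the sorted library held 15102 cells with 49531298 UMIs (median 2236 per cell) and the WKM library 8191 cells with 40709152 UMIs (median 3357), and 41 cell barcodes occurred in both. With 1 library per condition there was no replicate check and no test was run. All 95% intervals (exact Poisson for levels, exact binomial split for ratios, exact Clopper-Pearson for shares of cells) cover counting error only.

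Neutrophils fill their granules while they mature in the marrow, so that transcripts of granule proteins belong to particular stages rather than to the mature cell as a whole. Nephrosin is a secreted metalloprotease of the astacin family, known from the blood-forming tissue of fish. The gene lect2l belongs to the family of LECT2, which in mammals is a secreted protein that attracts neutrophils and binds the receptors MET and TIE1. Serglycin is the core protein of an intracellular proteoglycan whose glycosaminoglycan chains hold positively charged proteins in granules, and in mammals it is also made by macrophages, mast cells and cytotoxic lymphocytes. Both npsn and lect2l are widely used to mark zebrafish neutrophils.

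All 3 genes were abundant. In the sorted and the WKM library npsn took 0.711% and 0.288% of all UMIs, lect2l 4.42% and 2.24%, srgn 1.28% and 0.524%, and lyz 6.55% and 3.44%. Cells were grouped by the share of their UMIs that came from lyz, under 2%, 2 to 5%, 5 to 10% and over 10%. In the order of the bands these comprised 6578, 3045, 3714 and 1765 sorted cells and 5020, 1213, 1041 and 917 WKM cells. A neutrophil gate was made of mpx, ncf1, cfl1l, mmp9, cybb, scpp8 and illr4, without the 3 genes and lyz. It was the only gate passed by 97.8% of the sorted cells, but by 2119 of the 5020 cells in the lowest WKM band. Levels are given as CPM, the UMIs of a gene summed over the cells of a group and scaled to counts per 1000000 UMIs.

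In the sorted library all 3 granule genes were lowest in cells under 2% of lyz and levelled off at a lyz share of a few percent, so that they did not follow lyz through its upper range. For npsn, the astacin protease, the bands from low to high held 3219 CPM (3187 to 3251), 7507 CPM (7449 to 7565), 8738 CPM (8691 to 8785) and 8665 CPM (8615 to 8715). For lect2l they held 24238 CPM (24152 to 24324), 47682 CPM (47537 to 47827), 52684 CPM (52568 to 52800) and 51085 CPM (50964 to 51207). For srgn they held 8505 CPM (8454 to 8556), 13097 CPM (13021 to 13174), 14753 CPM (14692 to 14815) and 14396 CPM (14332 to 14461). The upper bands were close to each other, and the order of the top pair depended on the total. As a share of all UMIs each gene was slightly lower over 10% than at 5 to 10%, with intervals that overlapped for npsn. With lyz UMIs left out of the total, each was instead higher over 10% than at 5 to 10%, with 9963 and 9421 CPM of npsn, 58738 and 56800 CPM of lect2l, and 16553 and 15906 CPM of srgn. Over the same bands, whose definition fixes it, lyz itself had 8500, 36187, 72471 and 130287 CPM.

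Between the ends of the lyz range the difference was largest for npsn and smallest for srgn. Sorted cells over 10% of lyz exceeded those under 2% by a log2 ratio of 1.43 for npsn (1.41 to 1.44), 1.08 for lect2l (1.07 to 1.08) and 0.76 for srgn (0.75 to 0.77). Over the 7880 genes with at least 100 UMIs in both bands together the median log2 ratio was -0.46, and 10.1% of these genes were at least 2-fold higher, a limit that npsn and lect2l passed and srgn did not. The ratio was lower for 93.2% of these genes than for npsn, for 90.7% than for lect2l and for 87.2% than for srgn. With a minimum of 800 features per cell lect2l fell short of 2-fold, at a log2 ratio of 0.96. From 2 to 5% of lyz upward the log2 ratio of the top band was only 0.21 for npsn, 0.10 for lect2l and 0.14 for srgn, against 1.85 for lyz.

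**Figure D1:**
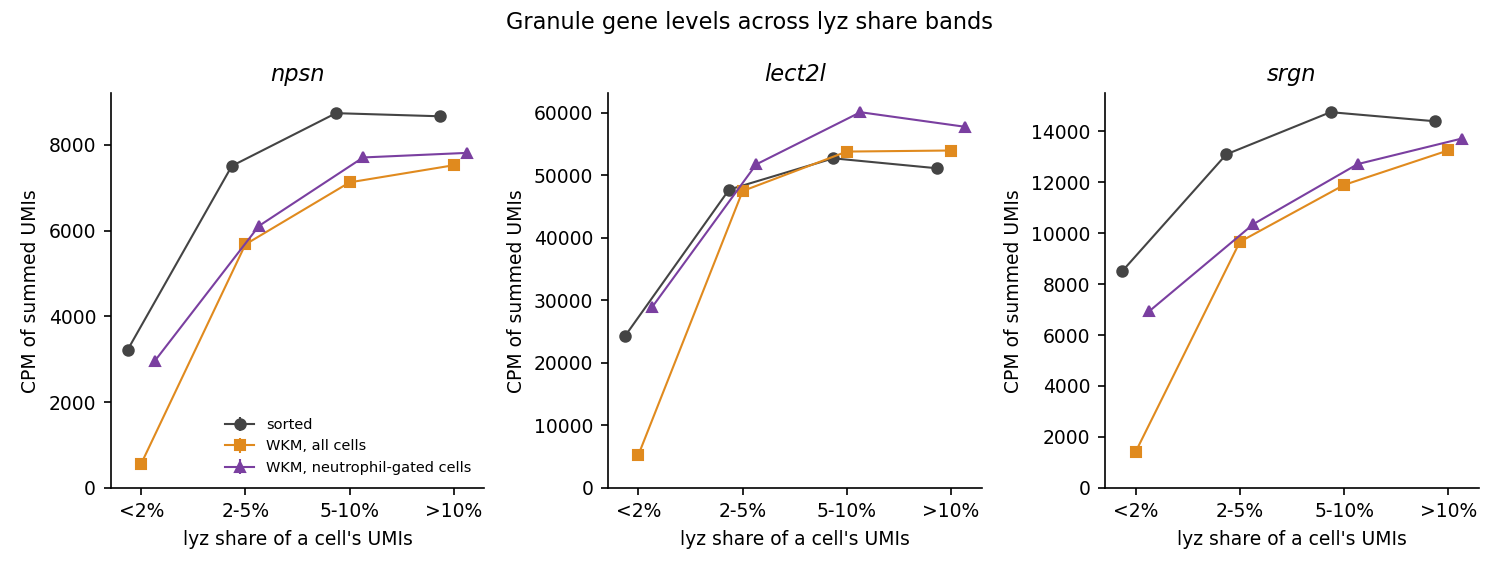
CPM of npsn, lect2l and srgn (y axis, linear from 0) by band of a cell's lyz share (x axis) in sorted cells, all WKM cells and neutrophil-gated WKM cells; the 95% Poisson intervals are narrower than the symbols. Sorted npsn levelled off at 8738 CPM from 5 to 10% of lyz, and the lowest WKM band stood far below the sorted one only when cells of all classes were counted.

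In the neutrophils of the WKM library npsn and lect2l also levelled off as shares of all UMIs, whereas srgn rose through every band. Among WKM cells that passed the neutrophil gate only, npsn had 2958, 6108, 7705 and 7812 CPM from the lowest to the highest band, lect2l had 28862, 51710, 60057 and 57734 CPM, and srgn had 6936, 10358, 12713 and 13717 CPM. Here too lect2l was lower over 10% than at 5 to 10%, whereas srgn was higher and npsn did not differ beyond counting error. With lyz left out of the total lect2l turned its direction, with 66733 CPM over 10% and 65011 CPM at 5 to 10%. In the same order npsn then had 9030 and 8340 CPM, and srgn had 15855 and 13761 CPM. The log2 ratio of the top over the bottom band reached 1.40 (1.37 to 1.43) for npsn, 1.0 (0.99 to 1.01) for lect2l and 0.98 (0.96 to 1.0) for srgn. The median over 5013 genes was -0.46, and 6.54% of them were at least 2-fold higher. Over all WKM cells, the top band exceeded that of 2 to 5% by 0.41 (0.38 to 0.43) for npsn, 0.18 (0.18 to 0.19) for lect2l and 0.46 (0.44 to 0.47) for srgn, against a median of -0.25 over 5025 genes. None of the 3 reached 2-fold in either direction, beside 3.6% of these genes that were at least 2-fold higher and 9.13% lower.

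Depth moved with the bands, and counts thinned to equal depth followed the same course. The median number of UMIs per sorted cell was 1667, 2478, 3257 and 7072 from the lowest to the highest band, and in neutrophil-gated WKM cells it was 1674, 2428.5, 3850 and 6028. After every cell had been thinned to 1000 UMIs, the median sorted cell held 2, 7, 9 and 8 UMIs of npsn, 21, 48, 52 and 53 of lect2l and 8, 13, 16 and 14 of srgn in the same order. Thinning leaves the expected share of a gene in a cell unchanged, so these counts cannot tell depth from band. A minimum of 800 features lowered the log2 ratio of the top over the bottom sorted band. It was 1.26 for npsn, 0.96 for lect2l and 0.70 for srgn, against 1.43, 1.08 and 0.76. The counts at equal depth also showed the step between the first and the second band, as thinning keeps a gene's expected share. The spread between single cells at this depth, as the interquartile range divided by the median, was 1.5, 0.571, 0.556 and 0.625 for npsn, 0.667, 0.396, 0.365 and 0.528 for lect2l, and 0.5, 0.538, 0.5 and 0.429 for srgn across the bands. It was thus widest under 2% of lyz for npsn, where the median is a few UMIs, and for lect2l, but not for srgn.

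A finer division into 12 bins of equal cell number placed the levelling off in the sorted library between 3 and 6% of lyz. In sorted cells npsn had 1824 CPM (1771 to 1879) at a median lyz share of 0.295%, 3453 CPM at 0.957% and 8761 CPM (8662 to 8861) at 5.59%, and it stayed between 8643 and 8798 CPM above. With lyz left out of the total npsn went on to a higher level, with 9281 CPM at 5.59% and 10035 CPM in the highest bin. The course of lect2l was similar, with 16347 CPM in the lowest bin, 49005 CPM at 3.76% of lyz, a maximum of 53407 CPM at 9.69% and 50392 CPM in the highest bin (59178 and 58505 CPM without lyz in the total). Unlike these, srgn had a local maximum in sorted cells, with 15692 CPM (15561 to 15825) and 16436 CPM (16301 to 16573) at 4.89% and 5.59% of lyz, above the 14024 CPM (13928 to 14121) at 6.90%. Without lyz in the total it was still present, with 17413 CPM at 5.59% and 15099 CPM at 6.90%. At this maximum mmp9, the gelatinase of late granules, also stood out with 534.8 and 540.8 CPM, against 446.6 CPM in the bin before and 185.4 CPM in the bin after. The median depth there was 2211 and 2154.5 UMIs, against 2687 and 4098 UMIs in those neighbours. Neutrophil-gated WKM cells showed no such maximum, and srgn there rose from bin to bin up to 13954 CPM (13819 to 14089) in the top one. What set these sorted cells apart was not tested.

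**Figure D2:**
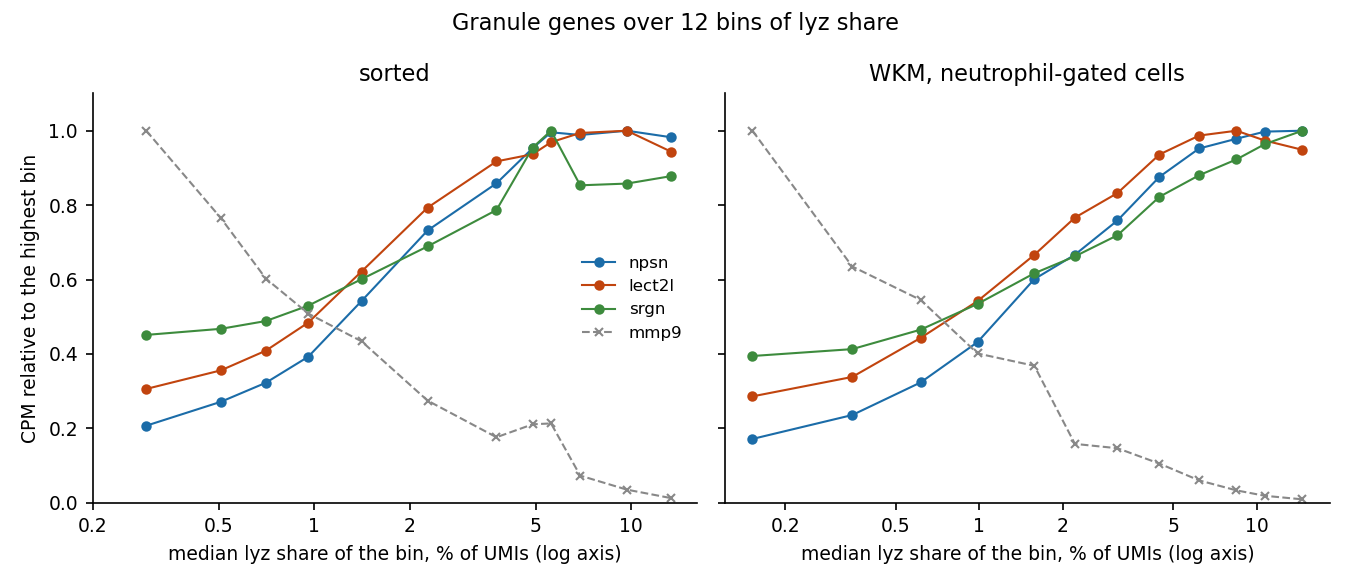
CPM relative to the highest bin (y axis) over 12 bins of equal cell number, placed at their median lyz share in percent of UMIs (x axis, log), for the granule genes and for mmp9 in sorted cells (left) and neutrophil-gated WKM cells (right). In sorted cells npsn and lect2l flatten above 5% of lyz and srgn peaks at 5.59%, while mmp9 falls from 2534 CPM in the lowest bin to 32.07 CPM in the highest.

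In the sorted library the proportions among the 3 genes, which do not depend on the total, shifted mainly between the lowest band and the others. For each npsn UMI there were 7.53 (7.45 to 7.61), 6.35 (6.30 to 6.40), 6.03 (5.99 to 6.06) and 5.90 (5.86 to 5.93) UMIs of lect2l in the sorted bands, and for each srgn UMI there were 0.378, 0.573, 0.592 and 0.602 of npsn. The sorted bands had 2.85, 3.64, 3.57 and 3.55 UMIs of lect2l for each srgn UMI. Sorted cells with little lyz thus held relatively more srgn and relatively less npsn than the others. Over all WKM cells, whose lowest band also holds other classes, lect2l per srgn was 3.73, 4.91, 4.52 and 4.07. There this ratio also moved between the upper bands.

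Across single cells, thinned counts of the 3 genes and lyz were ordered alike over the whole library and less so within bands. Spearman's rho over 14981 sorted cells was between 0.545 (npsn with srgn) and 0.715 (lect2l with lyz), and over 4903 neutrophil-gated WKM cells between 0.507 and 0.721 for the same pairs. Within the sorted bands from low to high the same measure was 0.429, 0.270, 0.154 and 0.240 for npsn with lect2l, 0.280, 0.169, -0.061 and 0.142 for lect2l with srgn, and 0.235, 0.371, -0.278 and 0.015 for srgn with lyz. The cells share their library and a fixed total of 1000 UMIs, and these correlations are given as a description only.

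Detection together with lyz was almost complete wherever lyz exceeded 2%, where the band itself fixes the detection of lyz. At 1000 UMIs lyz was found in 100% of the cells of these bands, so the shares there reflect the level of the granule gene alone. After thinning to 1000 UMIs, npsn and lyz were both detected in 88.1% (5737 of 6512), 99.7%, 99.8% and 100% of sorted cells from the lowest to the highest band. The corresponding shares were 98.9%, 99.8%, 99.95% and 100% for lect2l and 98.9%, 100%, 99.97% and 100% for srgn. All 3 genes and lyz were found together in 88.0% of the sorted cells under 2% of lyz, and 1 of these 6512 cells held none of the 3. Thinning left out 66 sorted cells of this band, and without thinning 95.4% of its cells held npsn and lyz. Among neutrophil-gated WKM cells of the same band npsn and lyz were both detected in 83.3% of 2114 cells, lect2l and lyz in 96.8% and srgn and lyz in 96.1%. In erythroid-like WKM cells, which are not known to make any of these proteins, 5.18% of 869 cells held npsn and lyz at the same depth, 12.7% lect2l and lyz, and 7.94% srgn and lyz. Of the UMIs of erythroid-like cells 51.5% were hemoglobin, against 5.08% in the neutrophil-gated WKM cells under 2% of lyz. The thinned counts of these groups are thus not alike in content.

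Cells sorted as LysC+ and WKM cells of the same lyz share differed by less than 2-fold in the granule genes once lyz exceeded 2%. The levels were closest for lect2l, while npsn and srgn were higher in sorted cells, most so at 2 to 5%. At over 10% of lyz, npsn had 8665 CPM in sorted cells and 7524 CPM in WKM cells (log2 ratio 0.20, 0.19 to 0.22). For lect2l the level was 51085 CPM in sorted cells and 53933 CPM in WKM cells (-0.08, -0.08 to -0.07), and for srgn it was 14396 CPM in sorted cells and 13252 CPM in WKM cells (0.12, 0.11 to 0.13). The median of 6738 genes was 0.18, so that npsn lay near it and lect2l and srgn below it. At 5 to 10% the log2 ratio of sorted over WKM cells was 0.29 for npsn, -0.03 for lect2l and 0.31 for srgn (median of all genes 0.19). At 2 to 5% it was 0.40, 0.01 and 0.44 in the same order (median 0.18). Relative to other genes lect2l was therefore the only one of the 3 to lie below the median of all genes in each of these bands. Hemoglobin transcripts took 5.37%, 3.24% and 1.56% of the UMIs of the 3 upper WKM bands and at most 0.00807% of the sorted ones. With lyz and hemoglobin left out of the total the ratios at over 10% of lyz were 0.17 for npsn, -0.12 for lect2l and 0.08 for srgn. In the same order of genes they were 0.24, -0.09 and 0.25 at 5 to 10% and 0.32, -0.07 and 0.36 at 2 to 5%.

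Under 2% of lyz the libraries differed in the cells that they held. There npsn had 3219 CPM in sorted cells and 563 CPM in WKM cells, lect2l 24238 and 5282 CPM, and srgn 8505 and 1417 CPM in the same order of libraries. When only cells that passed the neutrophil gate alone were compared, the folds of 5.72 for npsn, 4.59 for lect2l and 6 for srgn gave way to log2 ratios of 0.12 (0.09 to 0.15) for npsn, -0.25 (-0.26 to -0.24) for lect2l, which thus turned its direction, and 0.30 (0.28 to 0.32) for srgn. The median over 6900 genes was 0.13. In these gated cells mmp9 had 1635 CPM in the sorted and 444 CPM in the WKM library, and the sort was made on the mmp9 reporter.

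Not all lyz-rich cells had granule gene levels alike. Over 10% of lyz, 106 sorted cells and 160 WKM cells passed no gate at all, with less of the neutrophil gate genes than the other cells of the band by construction. In these cells lect2l had 30861 CPM against 52394 CPM in neutrophil-gated cells of the sorted library (log2 ratio -0.76, -0.78 to -0.75) and 38435 CPM against 57734 CPM in the WKM library (-0.59, -0.60 to -0.57). The lower level of npsn was smaller in extent, with 6717 CPM against 8787 CPM in sorted cells (-0.39) and 6400 CPM against 7812 CPM in WKM cells (-0.29). That of srgn was smaller still with -0.25 and -0.26. The lyz level itself was higher in the cells without a gate, with 137406 CPM against 129848 CPM in sorted cells and 149784 CPM against 134851 CPM in WKM cells. The median log2 ratio of all genes was -0.16 in sorted and -0.21 in WKM cells. The median depth of these cells was 7716.5 UMIs in the sorted and 7038 UMIs in the WKM library, against 7053 and 6028 UMIs in the gated cells.

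The WKM library was then divided into classes by marker genes that exclude the 3 granule genes and lyz. A cell belonged to a class when it passed that class's gate only, which gave 4908 neutrophil-like, 559 monocyte or macrophage-like, 870 erythroid-like, 268 HSPC-like (hematopoietic stem and progenitor), 82 B cell-like, 43 NK-like, 17 T cell-like and 9 thrombocyte-like cells. A further 1059 cells passed no gate and 364 passed several. The few cells left passed only a kidney tubule-like, endothelial-like or eosinophil or mast-like gate and are counted with the other gated classes. A gate is a range of a score and not a cell type, and cells with a marker share within 20% of the gate's limit numbered 431 for neutrophils, 197 for macrophages, 316 for erythroid cells and 614 for HSPC.

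Every granule gene was by far highest in the neutrophil-like class. It held 6261 CPM of npsn (6222 to 6300), 50043 CPM of lect2l (49934 to 50153) and 11147 CPM of srgn (11095 to 11199), against 179, 1216 and 506 CPM in the 1860 cells of all other gated classes together. The fold was 35.0 for npsn, 41.1 for lect2l and 22.0 for srgn, compared with 30.1 for lyz. Of 8240 genes 24.4% were at least 2-fold higher in the neutrophil-like cells, and the ratio was lower than that of npsn for 99.5% of them, than that of lect2l for 99.7% and than that of srgn for 98.7%. With the marker share of every gate doubled the log2 ratios were 4.35 for npsn, 4.59 for lect2l and 3.91 for srgn in place of 5.13, 5.36 and 4.46.

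Outside the neutrophil-like class the order of the classes by summed level depended on the gene and, in part, on single cells. Hemoglobin took 51.5% of the UMIs of erythroid-like and 0.964% of those of monocyte or macrophage-like cells. This lowers the CPM of every other gene in the erythroid-like class, and the order is that of shares of all UMIs. For npsn, NK-like cells had 1009 CPM (813 to 1237, from 92 UMIs), followed by erythroid-like cells with 196 CPM (186 to 206) and monocyte or macrophage-like cells with 189 CPM (177 to 200), whose intervals overlap. Below them were B cell-like cells with 101 CPM (66.0 to 148), T cell-like cells with 93.8 CPM (25.6 to 240) and HSPC-like cells with 44.8 CPM (36.5 to 54.4). For lect2l the order was 2708 CPM in NK-like, 1420 CPM in erythroid-like, 1246 CPM in monocyte or macrophage-like, 785 CPM in B cell-like, 422 CPM in T cell-like and 297 CPM in HSPC-like cells. Of the 43 NK-like cells 1, with over 2% of its UMIs from lyz, held 72.1% of the lect2l and 39.1% of the npsn UMIs of its class, and without it NK-like cells had 778 CPM of lect2l and 631 CPM of npsn. In cells under 2% of lyz NK-like cells were thus still first for npsn, but B cell-like cells with 785 CPM lay beside them for lect2l. For srgn, NK-like cells with 1951 CPM (1675 to 2260) and T cell-like cells with 1430 CPM (1094 to 1837) came first. They were followed by monocyte or macrophage-like cells with 796 CPM (773 to 820), erythroid-like cells with 360 CPM (346 to 374), B cell-like cells with 256 CPM (198 to 326) and HSPC-like cells with 133 CPM (118 to 149). The lymphoid classes with the most srgn rest on 178 and 61 UMIs of it. In the 9 thrombocyte-like cells srgn had 14 UMIs, lect2l 11 and npsn none, which allows up to 153 CPM of npsn by the 95% interval and 124 CPM at 3 counts.

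**Figure D3:**
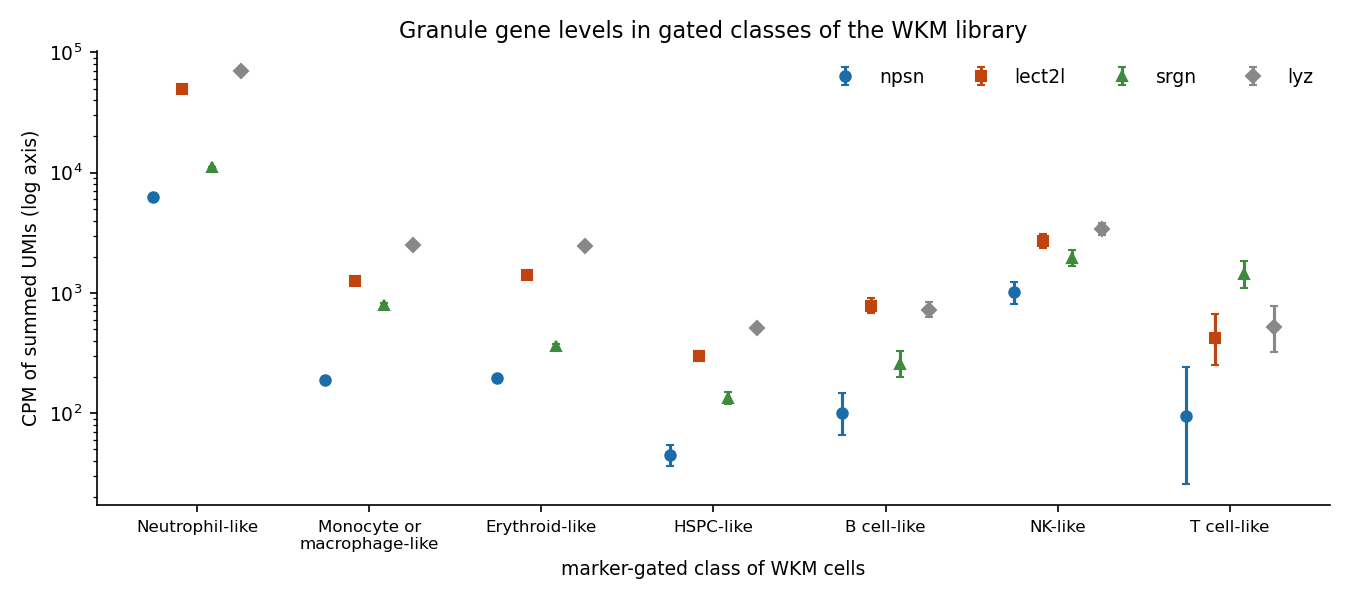
CPM of the granule genes and of lyz (y axis, log) in marker-gated classes of the WKM library, with 95% Poisson intervals. The neutrophil-like class stands highest for every gene, and among the others srgn is highest in NK-like cells (1951 CPM) and T cell-like cells (1430 CPM).

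A few cells of the other classes carried most of their npsn and lect2l transcripts, but not most of their srgn transcripts. Of the 1860 cells, 40 had 2% or more of their UMIs from lyz, and they held 57.8% of the npsn UMIs, 53.1% of the lect2l UMIs, 36.7% of the srgn UMIs and 77.7% of the lyz UMIs of the other classes. The rest had 78.1 CPM of npsn (73.7 to 82.6), 589 CPM of lect2l (577 to 601) and 331 CPM of srgn (322 to 340). Compared with the rest alone the neutrophil-like class, with its cells of all lyz shares, was higher by a log2 ratio of 6.33 for npsn, 6.41 for lect2l and 5.07 for srgn. This cut was made on the other classes only, and the granule genes were lower in neutrophil-like cells with little lyz. Neutrophil-like cells under 2% of lyz had 2958 CPM of npsn, 28862 CPM of lect2l and 6936 CPM of srgn. The classes were not alike. Cells with 2% or more of lyz held 54.4% of the srgn UMIs of erythroid-like and 27.4% of those of monocyte or macrophage-like cells. In HSPC-like cells 1 such cell held 21.8% of the npsn and 3.29% of the lect2l UMIs, and B cell-like cells included no such cell. Whether the 40 cells were doublets that the caller had missed was not tested.

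The granule genes were also set against lyz within each class, since RNA of one source that enters other droplets would keep its genes in one proportion. Whether stray RNA was the source of these transcripts was not tested. In cells under 2% of lyz, npsn had 140 UMIs (125 to 155) per 1000 lyz UMIs in monocyte or macrophage-like cells, 146 (135 to 159) in erythroid-like, 122 (95.4 to 154) in HSPC-like and 139 (88.5 to 210) in B cell-like cells. Likewise lect2l had 1095 (1040 to 1154), 1144 (1099 to 1192), 1000 (895 to 1117) and 1080 (881 to 1325) UMIs per 1000 lyz UMIs in the same order of classes. Under this limit, which cuts on lyz itself, these intervals overlapped for both genes across all 4 classes. NK-like cells were an exception for npsn, with 629 (442 to 889) per 1000 lyz UMIs from 56 UMIs of npsn, and lay below the erythroid-like interval for lect2l, with 775 (558 to 1074). In contrast srgn had 1193 (1134 to 1255) UMIs per 1000 lyz UMIs in monocyte or macrophage-like cells, 276 (258 to 294) in erythroid-like, 385 (331 to 446) in HSPC-like and 353 (262 to 470) in B cell-like cells. It reached 1854 (1424 to 2427) in NK-like and 2773 (1678 to 4742) in T cell-like cells. Neutrophil-like cells under 2% of lyz had 359 (352 to 367) UMIs of npsn, 3505 (3463 to 3549) of lect2l and 842 (829 to 856) of srgn per 1000 lyz UMIs, and over all lyz shares 90.1, 720 and 160 in the same order of genes. Over all lyz shares the intervals of monocyte or macrophage-like, erythroid-like, HSPC-like and B cell-like cells did not all overlap. In that order lect2l had 501 (487 to 516), 576 (562 to 590), 577 (524 to 635) and 1080 (881 to 1325) per 1000 lyz UMIs. For npsn the values were 75.85 (71.22 to 80.72), 79.34 (75.15 to 83.72), 87.14 (70.39 to 106.9) and 139 (88.51 to 210.2). With doubled gates, the intervals of these 4 classes under 2% of lyz still overlapped for npsn. For lect2l only those of HSPC-like and erythroid-like cells still did, with 1820 (1437 to 2315) in HSPC-like, 1414 (1361 to 1469) in erythroid-like, 1247 (1176 to 1323) in monocyte or macrophage-like and 597 (393 to 896) in B cell-like cells.

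**Figure D4:**
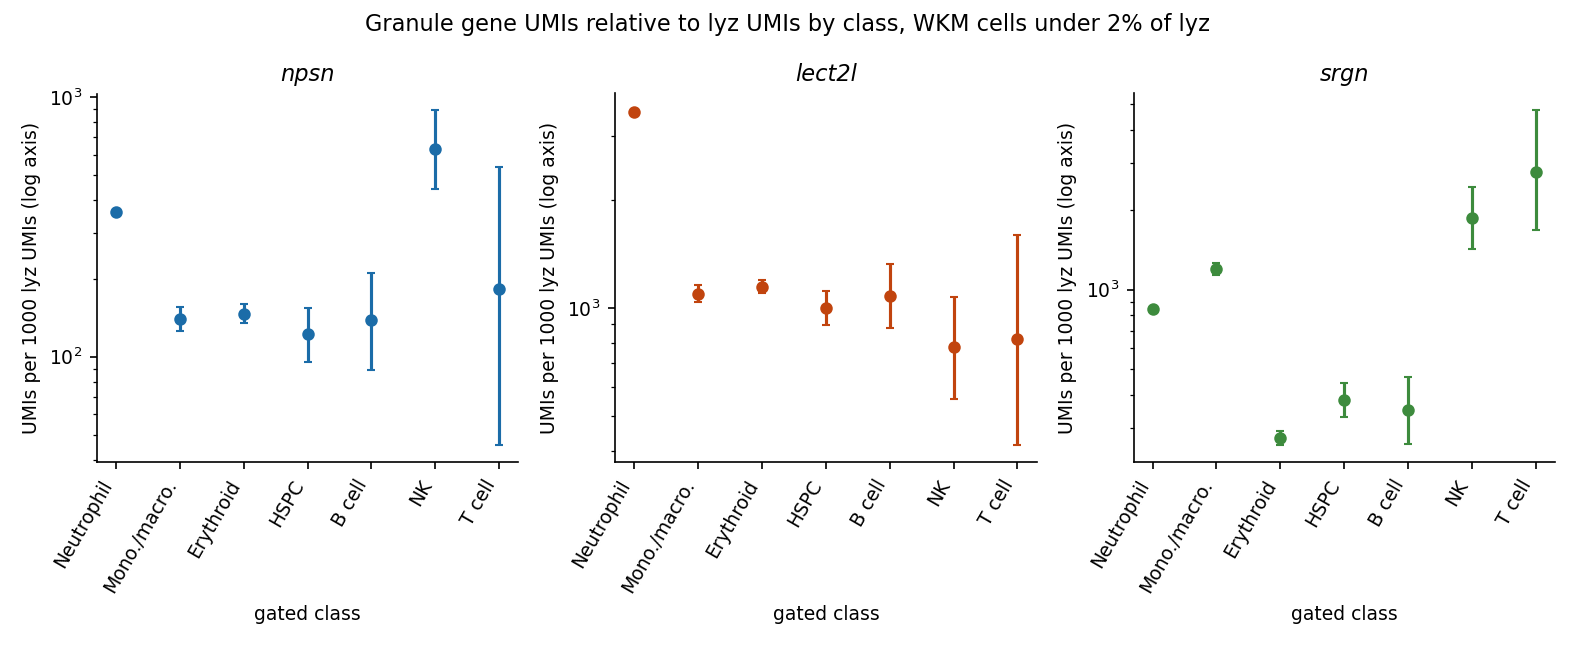
UMIs of npsn, lect2l and srgn per 1000 lyz UMIs (y axis, log) in the gated classes of WKM cells, cells under 2% of lyz only, with 95% binomial intervals. The intervals of npsn and lect2l overlap from the monocyte or macrophage-like to the B cell-like class, with NK-like cells above them for npsn. Neutrophil-like cells lie above these overlapping classes for both genes, with 359 UMIs of npsn and 3505 of lect2l per 1000 lyz UMIs. For srgn macrophage-like cells lie above erythroid-like cells, with 1193 against 276 per 1000 lyz UMIs in macrophage-like and erythroid-like cells.

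The share of cells with a transcript divided the genes in the same manner. After thinning to 1000 UMIs, npsn was detected in 93.7% of neutrophil-like cells, 6.62% of monocyte or macrophage-like cells (4.70 to 9.01%) and 7.83% of erythroid-like cells (6.13 to 9.82%). For lect2l the shares were 99.98%, 23.6% (20.1 to 27.4%) and 26.1% (23.2 to 29.2%) in that order. For these genes macrophage-like cells thus did not exceed the erythroid-like cells. Hemoglobin took 51.5% of the UMIs of erythroid-like and 0.964% of those of monocyte or macrophage-like cells, so the thinned counts are not alike in content. The source of these transcripts was not tested. For srgn the shares were 99.8% in neutrophil-like, 43.1% (39.0 to 47.3%) in monocyte or macrophage-like and 12.1% (9.99 to 14.4%) in erythroid-like cells. It was held by 83.7% (69.3 to 93.2%) of the 43 NK-like and 70.6% (44.0 to 89.7%) of the 17 T cell-like cells. Without thinning, 76.7% of macrophage-like and 30.6% of erythroid-like cells held both srgn and lyz, at median depths of 9690 and 7363.5 UMIs. In NK-like cells npsn was detected in 37.2% (23.0 to 53.3%), above the erythroid-like share, and 1 cell with more than 2% of lyz held 39.1% of the npsn UMIs. After the same thinning lyz itself was detected in 53.5% of NK-like, 52.9% of T cell-like and 27.7% of erythroid-like cells. Before thinning the median depth was 1946 UMIs in NK-like and 1986 UMIs in T cell-like cells, far below that of erythroid-like cells. Whether these shares exceed stray RNA was not tested.

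Among the relatives and partners of the 3 genes, few were abundant enough to compare. Of the astacin family metalloproteases, 14 of 17 listed were in the feature table and only c6ast1 had 100 UMIs in the sorted bands. It had 51.3 CPM over 10% of lyz and 5.53 CPM under 2% (log2 ratio 3.21, 2.86 to 3.59), a wider difference than that of npsn. For the LECT2 family, the feature si:ch211-132p1.3 (ENSDARG00000090889), which a gene name table pairs with LECT2 as it does lect2l, had 87.4 CPM over 10% and 84.7 CPM under 2% (log2 ratio 0.05, -0.08 to 0.17). The feature si:ch211-132p1.4, paired with lect2.3, had 7 UMIs in the sorted library and was not detected among the UMIs of the WKM library. Of the LECT2 receptors known from mammals, met had too few UMIs, and tie1 had 10.7 CPM over 10% and 54.1 CPM under 2% in sorted cells (-2.34, -2.61 to -2.08), opposite to lect2l over these bands. Between classes tie1 had the direction of lect2l, being higher in neutrophil-like than in other gated WKM cells (log2 ratio 1.60).

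Of 44 listed genes for the glycosaminoglycan chains of serglycin, which include enzymes of precursors and transporters, 16 were measured in the sorted bands. Taken as a whole list, as many were at least 2-fold higher as were lower. Their median log2 ratio of over 10% against under 2% of lyz was 0.00, beside -0.46 over all genes. Over 10% of lyz 4 were at least 2-fold higher than under 2% (b4galt7, papss2b, slc26a2 and ugdh), 4 were at least 2-fold lower (chst12a, ext2, hs2st1a and papss2a) and 8 were within 2-fold, beside 10.1% higher and 27.2% lower among all genes. The paralogs that make the sulfate donor went apart. Sorted cells had 164 CPM of papss2b over 10% and 30.8 CPM under 2% (2.42, 2.26 to 2.58), against 10.1 CPM and 47.2 CPM of papss2a (-2.22, -2.50 to -1.95). Between classes, 11 of 16 such genes were at least 2-fold higher in neutrophil-like than in other gated WKM cells and none was 2-fold lower, beside 24.4% and 11.2% of all genes. Among them csgalnact1a, which starts chondroitin chains, had 11.7 CPM in neutrophil-like and 0.507 CPM in other cells.

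Other granule and effector genes of neutrophils mostly ran opposite to the 3 genes. Of 24 measured in the sorted bands (31 listed), 14 were at least 2-fold lower over 10% of lyz than under 2%, with a median log2 ratio of -1.36, beside 27.2% lower and a median of -0.46 among all genes. Those lower comprised mmp9 (38.5 CPM over 10%, 1622 CPM under 2%, log2 ratio -5.40), the NADPH oxidase subunits cybb (-1.49) and ncf1 (-1.28), the metalloprotease gene adam8a (-1.55) and timp2b (-2.55), an inhibitor of matrix metalloproteases. In the other direction cfd, the gene of complement factor D, had 2125 CPM over 10% and 40.6 CPM under 2% (5.71). The peroxidase gene mpx (0.04) and cd63 (-0.04), a membrane protein of granules, were level between these bands, so that npsn, lect2l and srgn stood between cfd and mpx. In the classes 17 of 25 genes of this list were at least 2-fold higher in neutrophil-like cells, 5 of them (mpx, ncf1, mmp9, cybb and scpp8) through the gate itself, and 4 were lower (ctsh, lygl1, grn1 and grn2), beside 24.4% higher and 11.2% lower among all genes. Between sorted and WKM cells over 10% of lyz, 1 of 23 was at least 2-fold higher (mmp9) and 1 lower (grn1), beside 3.29% and 0.327% of all genes.

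The genes whose levels most resembled those of the 3 were sought among 7035 genes over 13 groups, the lyz bands of both libraries and the WKM classes of at least 50 cells. Pearson's r of log2(CPM + 10) with npsn was 0.997 for ch25hl2, 0.994 for sult2st1 and 0.991 for cpa5, and with lect2l it was 0.995, 0.989 and 0.989 for the same genes. With srgn it was 0.993 for sult2st1, 0.990 for bdh1 and 0.987 for cpa5. The granule genes resembled each other as closely, with r of 0.997 for npsn with lect2l, 0.994 for npsn with srgn and 0.991 for lect2l with srgn. With the same genes lyz gave 0.943 to 0.958 and si:ch211-132p1.3 gave 0.290 to 0.317. The groups share libraries, and any gene confined to neutrophils has a high r over them, so that these values are descriptions. In sorted cells ch25hl2 had 1023 CPM over 10% of lyz and 407 CPM under 2% (1.33), and sult2st1 had 1814 CPM and 633 CPM (1.52), close to npsn, while cpa5 had 5568 CPM and 1274 CPM (2.13) and bdh1 39.1 CPM and 31.1 CPM (0.33). These bands were among the 13 groups by which the genes were picked. The size of a difference does not enter r, and over the groups bdh1 had a log2 range of 2.40 against 6.69 for srgn.

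**Figure D5:**
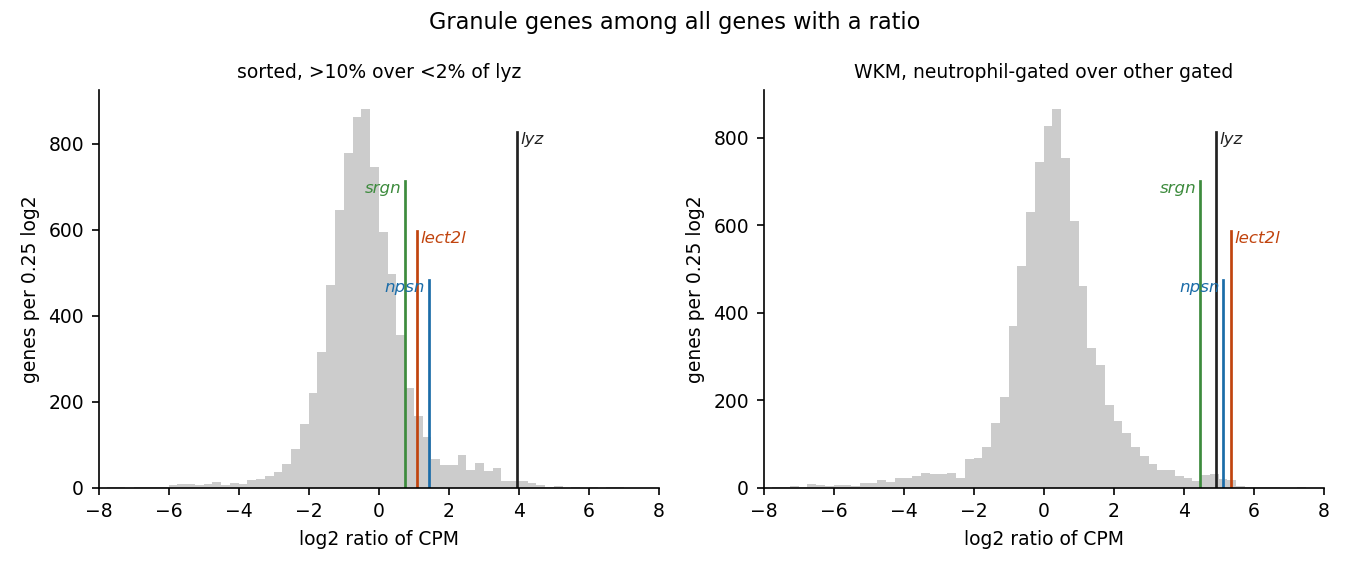
Number of genes (y axis) by log2 ratio of CPM (x axis, bins of 0.25) for sorted cells over 10% against under 2% of lyz (left, 7880 genes) and for neutrophil-gated against other gated WKM cells (right, 8240 genes), with vertical lines at the granule genes and lyz. On the left srgn, lect2l and npsn lie at 0.76, 1.08 and 1.43, well below lyz, and on the right all lie between 4.46 and 5.36 around lyz.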

How the data were processed

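Droplet-based scRNA-seq was measured in 2 libraries of kidney marrow cells of the same 2 fish. Per the labels and the methods of the study, the authors made the deposited UMI counts with Cell Ranger 3.1.0 (Single Cell 3' kit v3.1) on the GRCz11 reference with the sequences of both reporters added, without normalization, and their later demultiplexing, filters and integration are not part of these counts and were not repeated. The deposited counts covered 17846 sorted barcodes with 58772890 UMIs and 10688 WKM barcodes with 45939863 UMIs.

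Barcodes with at least 500 features and under 10% mitochondrial UMIs were kept (16899 sorted, 8313 WKM), and doublets called by Scrublet in scanpy 1.11.5 (expected 10%) were removed (1797 sorted, 10.6%, and 122 WKM, 1.47%). Sums and intervals used scipy 1.17.1, numpy 2.4.6 and pandas 2.3.3, figures matplotlib 3.10.9, all in Python 3.11.15. UMIs were summed per group and scaled to CPM, so that 3 counts correspond to 0.116 to 0.820 CPM in the lyz bands. Log2 ratios were taken for genes with at least 100 UMIs in both groups together. For co-detection every cell was thinned to 1000 UMIs and shallower cells were left out. Gates required 0.3% of UMIs from neutrophil markers, 10% from erythroid markers or 0.1% from other lists. At least 3 markers had to be detected, or 2 for the lymphoid, thrombocyte, kidney tubule, endothelial and eosinophil or mast lists. The endothelial list held tie1 and the eosinophil or mast list cpa5. The eosinophil or mast list had a median share of 0.272% in neutrophil-like WKM cells, so its gate also affects which cells pass the neutrophil gate only. Gates were set after the files had been seen, with cd74a and cd74b left out of the macrophage markers. Named genes were the members, lyz, the 3 most similar genes per member and the listed families. The values of 1 gene of the granule and effector list are not reported here. The members and lists were chosen with earlier results of these data known. No sort label of single cells was used. The interval of a ratio was tested on simulated data. Alternatives covered the denominator, doublets, minimum features, gates, thinning depth and a split of each cell's UMIs.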

Additional observations from a re-analysis of the deposited data

How the results depend on the processing

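The depth of 1 library per condition sets intervals of a few hundredths on the log2 scale, so that small shifts pass them. The differences of the top band from the bottom one in sorted cells and from that of 2 to 5% in WKM cells, and those between neutrophil-like and other cells, kept their direction under every alternative run. The small deficit of sorted cells over 10% of lyz relative to 5 to 10%, a comparison added after seeing the data, reversed with lyz left out of the total, to 0.08 for npsn, 0.05 for lect2l and 0.06 for srgn on the log2 scale, and to the same values with hemoglobin also left out. In sorted over WKM cells under 2% of lyz, lect2l reversed to -0.25 in neutrophil-gated cells only (chosen after seeing the data). No alternative that leaves out a library could be made, since each condition has 1. No paired analysis was possible because each group has 1 library and the fish were not told apart within it here. The causes of the shifts were not tested.

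With lyz left out of the total, the log2 ratio of over 10% against under 2% of lyz in sorted cells was 1.62 for npsn, 1.26 for lect2l and 0.95 for srgn, that of over 10% against 2 to 5% in WKM cells 0.57, 0.35 and 0.62, and that of neutrophil-like over other cells 5.23, 5.46 and 4.56, while sorted over WKM cells gave -0.09 for lect2l and 0.11 for srgn. With hemoglobin also left out (chosen after seeing the data), these ratios were 1.62, 1.26 and 0.95, then 0.51, 0.29 and 0.56, then 4.86, 5.10 and 4.20, and sorted over WKM cells gave 0.17, -0.12 and 0.08. Without doublet removal the values were 1.37, 1.05 and 0.74, then 0.45, 0.23 and 0.50, then 4.84, 5.03 and 4.29. With at least 800 features, sorted cells gave 1.26, 0.96 and 0.70, WKM cells 0.21 for lect2l, and neutrophil-like over other cells 5.32 for lect2l and 4.43 for srgn. Neutrophil-gated cells alone (chosen after seeing the data) gave 1.45 for npsn and 1.11 for lect2l in sorted cells, 0.36, 0.16 and 0.41 in WKM cells, and 0.17, -0.14 and 0.08 for sorted over WKM cells. Bands set from a random split of each cell's UMIs gave 1.41 for npsn and 1.07 for lect2l in sorted cells and -0.07 for lect2l in sorted over WKM cells. Doubled gates gave 4.35, 4.59 and 3.91 for neutrophil-like over other cells. Neutrophil-like cells of all lyz shares over other cells under 2% of lyz alone (chosen after seeing the data) gave 6.33, 6.41 and 5.07. The share of neutrophil-like cells with lyz and npsn, 92.6% as reported, was 80.9% at 500 UMIs, 99.2% at 2000 UMIs and 96.9% without thinning. For lect2l it was 98.3% as reported and 94.8%, 99.97% and 99.6% in that order, and for srgn 98.2% as reported and 92.9%, 100% and 99.6%.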
